A study of Mus musculus with 4 samples.

Results

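The 10 genes Fos, Fosb, Fosl1, Fosl2, Jun, Junb, Jund, Atf3, Egr1 and Ier2 encode subunits of the transcription factor AP-1 and other immediate early proteins, and they were chosen by name from the 28889 genes listed over the libraries of the series. All 10 were listed in every library. The question was whether these genes differed between liver tumours with and without KLF2 overexpression, and whether a difference was shared by all cells of a library or restricted to the tumour cells. Every mouse was a male C57BL/6 animal injected by hydrodynamic tail vein injection at 8 weeks of age, and its tumour was taken 10 weeks later, at 18 weeks. All groups received plasmids for c-MYC and AKT and the transposase SB100X, an enzyme that cuts the insert out of a pT3 plasmid and pastes it into the DNA of the recipient hepatocytes. The vector group also received the empty pT3 plasmid, and the KLF2 group received KLF2 under the EF1α promoter, which drives all 3 genes. Only cells that took up plasmid carry these genes, whereas the blood, vessel and stromal cells belong to the host. The species of the injected KLF2 gene is not given in the sources used here. Levels are given in CPM, a gene's UMIs (defined below) scaled to a common total per class and library. Mouse Klf2 stood at 389 CPM in all cells of vector replicate 2, at 338 in KLF2 replicate 1 and at 406 in KLF2 replicate 2, so it did not separate the groups over all cells. In the tumour and parenchymal cells it stood at 138, 326 and 379 CPM.

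Counts of unique molecular identifiers (UMIs, tags that mark single RNA molecules) were analysed for vector replicate 2 and KLF2 replicates 1 and 2; the matrix of vector replicate 1 was not analysed here, so 1 vector library was set against 2 KLF2 libraries. The libraries differed in quality along the same line: a median barcode held 2373 UMIs with 16.3% mitochondrial in the vector library, against 8784 and 5724.5 UMIs with 0.227% and 0.35% in the KLF2 libraries. After filtering, 8403, 6209 and 11103 cells were kept, and they were joined into 7 classes. Between 550 and 1146 barcode names were shared by pairs of libraries. The tumour and parenchymal compartment, called the compartment, held 589, 5207 and 8327 cells, but these were not alike. Of the vector cells, 586 fell in a hepatocyte-lineage-like cluster, against 20 and 56 KLF2 cells, and the 12 hepatocyte markers summed to 4593 CPM in the vector compartment against 64.7 and 85.5 in the KLF2 compartments, so the defining markers of liver cells were nearly absent there. Group, cell state and library quality cannot be told apart in this comparison.

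AP-1 is a dimer of basic leucine zipper proteins in which a Jun protein pairs with a Fos protein, with another Jun protein or with an ATF protein. The Fos proteins need a partner, whereas Jun proteins can also pair among themselves. Most of these genes are silent or low in resting tissue and are transcribed within minutes of growth factor, cytokine or stress signals through MAP kinases, without new protein synthesis; in liver they are known from regeneration and injury. Enzymatic dissociation of tissue for single-cell sequencing is also known to switch them on in many cell types.

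The promoters are shown for 3 members on which the results below turn: Fos and Atf3, which passed the test in 4 and 6 of 7 classes, and Jun. Jun passed as higher in endothelial cells and as lower in T/NK cells. Sequence was available for 7 of the 10 members from RefSeq (GRCm38.p6), as the 250 bases before the transcription start, read 5′ to 3′ on the strand of the gene. Capitals mark TGACG, the core of a cAMP response element bound by ATF and CREB proteins, in either orientation, the variant AP-1 and ATF site TGACATCA, and the TATAAA box.
Fos, chr12:85473640-85473889, plus strand: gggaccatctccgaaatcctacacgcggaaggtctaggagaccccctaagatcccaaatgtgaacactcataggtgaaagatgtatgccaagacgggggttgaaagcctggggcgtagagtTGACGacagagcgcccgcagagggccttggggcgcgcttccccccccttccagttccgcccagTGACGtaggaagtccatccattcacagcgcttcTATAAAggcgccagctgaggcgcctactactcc
Atf3, chr1:191183334-191183583, minus strand: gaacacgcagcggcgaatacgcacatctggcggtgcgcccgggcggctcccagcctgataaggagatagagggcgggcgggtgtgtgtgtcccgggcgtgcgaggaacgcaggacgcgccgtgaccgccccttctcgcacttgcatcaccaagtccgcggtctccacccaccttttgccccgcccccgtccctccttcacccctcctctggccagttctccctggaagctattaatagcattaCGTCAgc
Jun, chr4:95052223-95052472, minus strand: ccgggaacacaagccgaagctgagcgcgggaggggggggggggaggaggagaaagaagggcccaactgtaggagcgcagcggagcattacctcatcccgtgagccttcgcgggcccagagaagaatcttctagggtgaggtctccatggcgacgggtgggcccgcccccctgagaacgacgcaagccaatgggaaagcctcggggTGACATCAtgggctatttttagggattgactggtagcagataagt
Fos carries TGACG at bases -129 and -66 from its start and TATAAA at base -33. Atf3 carries the reverse complement of TGACG at base -7, and a match to TGATGNAA, a composite ATF and C/EBP motif, at base -110. Jun carries TGACATCA at base -45. Over the 7 members with a sequence, 4 held TGACG (Atf3, Fos, Fosb and Junb), against 17.8% of all 32851 windows of this length, and TGACATCA was in 1 member against 2.93%. The full element TGACGTCA, in which TGACG is contained, and the classical AP-1 site TGANTCA were in none of the 7 windows, against 1.55% and 6.75% of all windows. The serum response CArG box was in none either, against 1.47%. Sites outside these 250 bases were not searched. The windows of Fosl2, Jund and Atf3 also lie away from the gene starts of the GENCODE M21 annotation (32135801, 70698949 and 191218039). CACCC, a core of motifs bound by KLF proteins, was in 6 of 7 windows, but 52.0% of all windows hold it. All motifs were searched on both strands, and a match describes letters, not binding.

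In the compartment, all 10 genes were higher in both KLF2 libraries than in the vector library, and 4 of them passed the test: Atf3, Ier2, Fos and Jund. Atf3, a stress-induced ATF protein that pairs with Jun proteins, stood at 27.0 CPM in the compartment in vector replicate 2, 604 in KLF2 replicate 1 and 1134 in KLF2 replicate 2. Fos, the founding partner of Jun, stood at 230, 1039 and 1357 CPM. Both KLF2 libraries lay far above the vector library for these 2 genes. Ier2, an immediate early nuclear protein, stood at 82.7, 421 and 612, and Jund, the Jun protein that resting cells also make, at 156, 599 and 617. In edgeR's quasi-likelihood test the log2 differences (KLF2 minus vector) were 4.31 for Atf3 (SE 0.58, adjusted p = 0.0114), 1.95 for Ier2 (SE 0.38, adjusted p = 0.0264), 1.69 for Fos (SE 0.35, adjusted p = 0.0312) and 1.27 for Jund (SE 0.28, adjusted p = 0.0375). All 10 members passed the filter on low counts, and the 4 called stand against 13.5% of 20387 genes called higher and 10.5% called lower. The count of 10 higher in both libraries has to be read against 78.0% of the 3633 genes whose mean reached 30 CPM, Fosl1 being below that mean.

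The other 6 members did not pass. Egr1, a zinc finger factor induced with Fos, stood at 128, 453 and 1032 CPM (log2 difference 1.84, SE 0.60, adjusted p = 0.0885), and Jun, the main partner of Fos, at 431, 1358 and 2246 (1.37, SE 0.44, adjusted p = 0.0868). For both genes KLF2 replicate 2 was well above KLF2 replicate 1, which widened the error. Fosl1, the Fos-related protein Fra-1, had 1.30, 4.95 and 7.83 CPM (1.60, SE 0.63, adjusted p = 0.136). Fosl2, which encodes Fra-2, had 15.6, 30.3 and 56.6 (0.78, SE 0.48, adjusted p = 0.302). Fosb stood at 157, 193 and 474 (0.40, adjusted p = 0.625) and Junb, a Jun protein that can restrain Jun, at 335, 495 and 872 (0.34, adjusted p = 0.584). Lymphocyte RNA was higher in the vector compartment: Ptprc, a leukocyte gene, stood at 50.5, 2.23 and 4.82 CPM and the 10 T cell markers summed to 310, 15.2 and 13.9, while vector T/NK cells held Junb at 2130 and Fosb at 738 CPM. Its part in the members' compartment levels was not tested. The median log2 difference of all genes was 0.68 and that of the 10 members 1.49, so Fosb and Junb lay below the median gene. Scaling by total UMIs alone raised the median gene to 1.37 and the members called to 7, and thinning every cell to 1000 UMIs reduced them to 2 (Atf3 and Fos). A fit here rests on 1 vector library, assumed to vary like the KLF2 libraries.

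The hepatocyte-lineage-like cluster held cells of all 3 libraries and allowed a comparison within 1 cluster, without a test because KLF2 replicate 1 gave only 20 cells. With finer clustering (Leiden resolution 2.0) such cells split by library. Clusters 24 and 30 held 339 and 245 vector cells, 2 and 8 of KLF2 replicate 1 and 1 and 7 of KLF2 replicate 2. Cluster 39, led by Clu and C3, held 31, 10 and 51. Cell state thus differed here too, and its part was not tested. Here 8 of the 10 members were higher in both KLF2 libraries, against 61.0% of 3621 genes. Atf3 had 26.9 CPM (Poisson 95% interval 21.4 to 33.3) in 586 vector cells, 364 (240 to 530) in the 20 cells of KLF2 replicate 1 and 986 (899 to 1078) in the 56 cells of KLF2 replicate 2. Fos had 230 (213 to 248), 445 (306 to 625) and 1351 (1249 to 1458), and Egr1 129 (116 to 142), 324 (207 to 482) and 1209 (1113 to 1310). For these 3 genes, and for Fosb, Jund and Ier2, the vector interval lay below both KLF2 intervals, which cover counting error only. Fosb stood at 158, 499 and 889, higher in the KLF2 hepatocyte-lineage-like cells than in the KLF2 compartment as a whole. Jun and Junb were above vector in KLF2 replicate 1 with overlapping intervals, and Fosl1 and Fosl2 were not higher in both. Of 7 reference genes for free tumour RNA (named below), the levels here ran from 0.0% to 376% of the compartment level in KLF2 replicate 1 and from 21.9% to 264% in KLF2 replicate 2, with Krt18, which hepatocytes also make, the highest. Atf3 stood at 60.2% and 87.0%, and 0 members were above that range in either library. The upper end of the range cannot measure free tumour RNA, since vector cells of this cluster held Krt8 at 496 CPM and Krt18 at 391. Below these 2 genes, the highest reference gene was Krt19 at 260% in KLF2 replicate 1 and Lgr5 at 46.2% (11 UMIs) in KLF2 replicate 2. The part of free RNA in these levels was not tested.

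**Figure D1:**
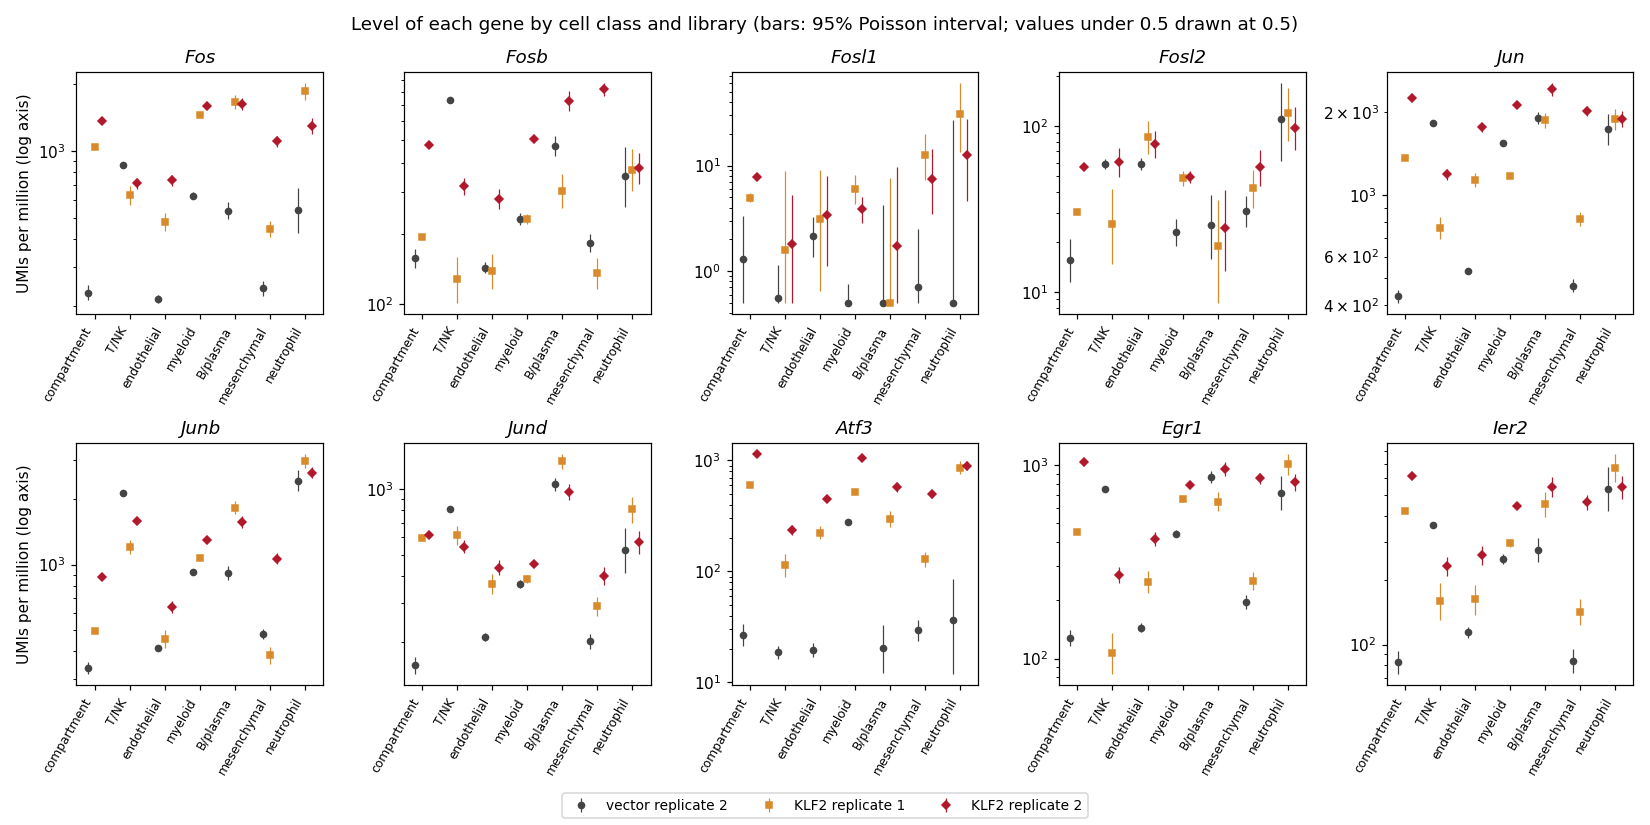
Level of each gene in CPM (log axis, own range per panel) in 7 classes, with 1 point per library and bars for the Poisson 95% interval (values under 0.5 are drawn at 0.5). Atf3 in the vector library lies between 18.7 and 36.6 in every class but myeloid (278), below the KLF2 points of the same class, and the vector T/NK point is the highest of its class for Fos, Fosb, Jun, Junb, Jund, Egr1 and Ier2.

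Across the host cells, levels differed by class. Junb was highest in neutrophils in all 3 libraries (2424, 2990 and 2636 CPM) and stood at 335 to 872 in the compartment. Jund was highest in B/plasma cells in all 3 libraries (1051, 1338 and 970), and Fosl2 in neutrophils (110, 120 and 97.4), whose Poisson intervals overlapped those of endothelial cells in all 3 libraries. Fos was highest in T/NK cells in the vector library (865), in neutrophils in KLF2 replicate 1 (1852, beside 1661 in B/plasma cells, with overlapping intervals) and in B/plasma cells in KLF2 replicate 2 (1628, beside 1593 in myeloid cells, with overlapping intervals). The vector compartment was the lowest of the 7 classes for Fosl2, Jun, Junb, Jund, Egr1 and Ier2. In KLF2 replicate 2 the compartment was instead the highest class for Atf3, Egr1 and Ier2, while in KLF2 replicate 1 it was highest for none. These levels describe clusters of the same cells and carry no test.

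Atf3 was higher in both KLF2 libraries in every class, although in T/NK and mesenchymal cells its KLF2 level lay within the range of the tumour reference genes described below. The same held for B/plasma cells and neutrophils of KLF2 replicate 2. It rose from 19.7 to 223 and 454 CPM in endothelial cells, from 20.6 to 298 and 578 in B/plasma cells, from 29.7 to 128 and 498 in mesenchymal cells and from 36.6 to 860 and 900 in neutrophils. In edgeR the log2 differences were 3.75 in endothelial cells (adjusted p = 1.08e-21), 4.19 in B/plasma cells (9.91e-11), 2.78 in mesenchymal cells (1.77e-06), 4.09 in neutrophils (3.86e-06) and 3.06 in T/NK cells (8.68e-07). The shares of all genes called higher in these classes were 14.6%, 8.93%, 11.2%, 6.00% and 10.8%, and the shares called lower in the first 4 were 13.9%, 7.35%, 9.11% and 4.78%. Myeloid cells were the exception: Atf3 was already at 278 in the vector library, against 523 and 1043, and the log2 difference of 1.17 did not pass (adjusted p = 0.0942). Passing is not alike between classes, since the degrees of freedom of the error after edgeR's moderation differed. For Atf3 in neutrophils, 4.09 with SE 0.75 gave an unadjusted edgeR p of 5.26e-08. For Atf3 in the compartment, 4.31 with SE 0.58 gave 0.00091. For the vector group these fits rest on vector replicate 2 alone, where Atf3 in neutrophils had 5 UMIs in 70 cells. The calls were not all stable. Atf3 did not pass in endothelial cells after thinning, or in mesenchymal cells with the DESeq2 Wald test. In T/NK cells Atf3 passed in all 13 alternatives that had a test. The vector myeloid cells came from cluster 12, led by MHC class II genes, and the KLF2 ones from clusters 9, 18, 19 and 24, led by macrophage and monocyte genes.

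Members higher in both KLF2 libraries numbered 9 in endothelial cells (background 59.2%), 8 in myeloid (55.7%), 4 in B/plasma (52.1%), 8 in mesenchymal (67.3%) and 9 in neutrophils (58.8%). The neutrophil count holds for CPM only: in the edgeR fit the median of the 9 tested members was -0.27 there, against 0.31 for all genes, with Atf3 and Fos alone above 0, and 7 of 10 members lay within the range of the tumour reference genes in KLF2 replicate 2. Members lower in both numbered 1 in B/plasma cells, Fosl2 (background 28.0%), and 0 in endothelial, myeloid, mesenchymal and neutrophil cells (22.2%, 31.1%, 17.0% and 23.9%). Fos was higher in both in 5 of the 6 host classes. It passed in endothelial cells (216, 478 and 737 CPM; log2 difference 1.13, adjusted p = 0.00138), in B/plasma cells (539, 1661 and 1628; 1.39, adjusted p = 0.026) and in myeloid cells (630, 1448 and 1593; 0.95, adjusted p = 0.0489), where 13.7% of genes were called higher and 8.23% lower (21.9% in all). It missed the threshold in mesenchymal cells (241, 444 and 1104; adjusted p = 0.0638) and neutrophils (542, 1852 and 1296; adjusted p = 0.268). Endothelial cells also showed Jun (531, 1133 and 1762; 1.08, adjusted p = 0.000855) and Egr1 (144, 249.1 and 415; 0.84, adjusted p = 0.028) higher. With Atf3 that made 4 of 9 tested members, where 28.5% of genes were called in either direction, but none passed after thinning to 1000 UMIs and 1 passed with at least 500 genes per cell. The endothelial cells were of clusters 5 and 17 in the vector library and of cluster 20 in the KLF2 libraries. The B/plasma cells were nearly all of cluster 21 in the vector library and of cluster 23 in the KLF2 libraries. Their 7 plasma cell markers summed to 5312 CPM in the vector library, 5696 in KLF2 replicate 1 and 198 in KLF2 replicate 2. The part of the B/plasma makeup was not tested. In mesenchymal cells, which all 3 libraries shared in cluster 15, Ier2 also passed (83.9, 142 and 462; 1.23, adjusted p = 0.043), where 20.3% of genes were called in either direction. At Leiden resolution 2.0, however, mesenchymal cells split by group. Cluster 20, led by Tagln and Acta2, held 357 vector, 12 KLF2 replicate 1 and 19 KLF2 replicate 2 cells. Cluster 35, led by Col3a1 and Timp1, held 1, 76 and 159. The part of this makeup was not tested. Fosl1 had no UMI in vector myeloid cells and 6.01 and 3.85 CPM in the KLF2 ones (adjusted p = 0.0123), at least 9.88-fold and 6.33-fold above a floor of 3 UMIs in the vector library. Whether the counting used strand is not known here, so reads of Fosl1 and of Ccdc85b, which overlaps it on the opposite strand in the GENCODE M21 annotation of GRCm38, cannot be told apart. Jun, Junb, Jund and Atf3 overlap Junos, Prdx2, Gm11175 and Gm24748 in the same way.

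**Figure D2:**
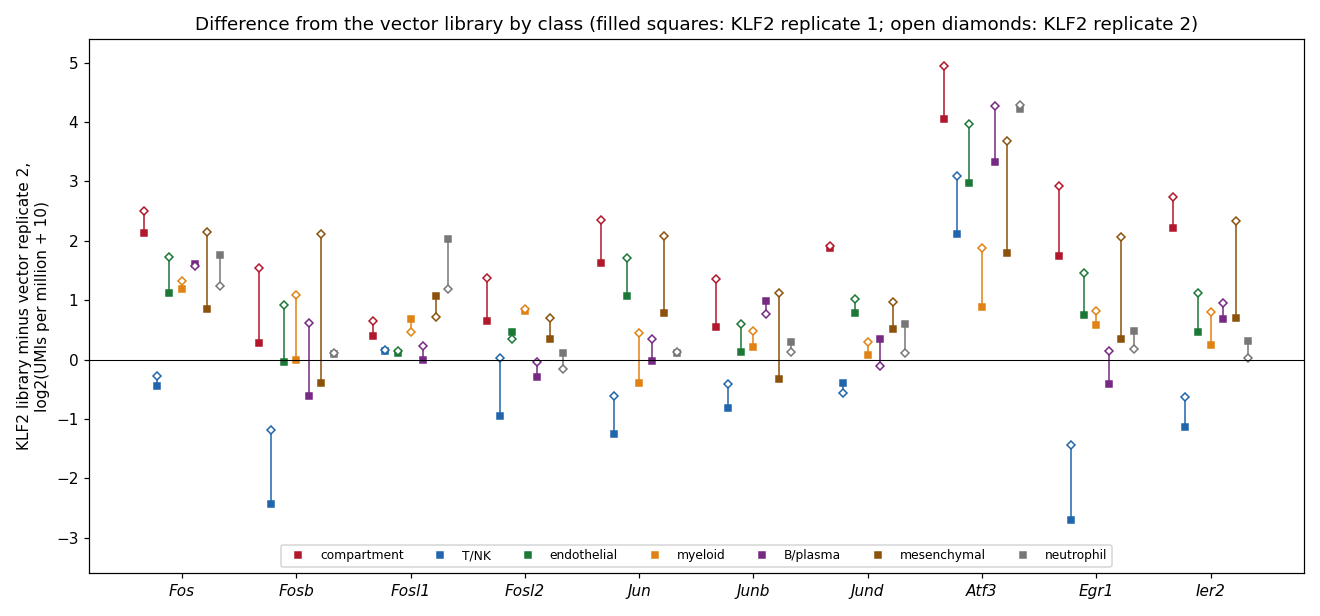
Difference of each KLF2 library from vector replicate 2 in log2(CPM + 10), for each gene (x axis) and class (colour), with a line joining both libraries. Atf3 is above 0 in all 7 classes, and T/NK cells are below 0 in both libraries for Fos, Fosb, Jun, Junb, Jund, Egr1 and Ier2, from -0.27 down to -2.70.

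T/NK cells ran the other way. In them 7 of the 10 members were lower in both KLF2 libraries than in the vector library, against 26.9% of 3548 genes, 2 were higher in both, against 49.5%, and 4 of the 9 tested members fell by the test, against 7.83% of genes called lower. Egr1 went from 752 CPM in the vector library to 107 and 272 (log2 difference -2.14, SE 0.35, adjusted p = 3.91e-05). Fosb went from 738 to 128 and 318 (-1.89, SE 0.35, adjusted p = 0.000205). Jun went from 1820 to 761.9 and 1191 (-1.11, adjusted p = 0.0108) and Ier2 from 363 to 160 and 232 (-1.09, adjusted p = 0.00874). For these 4 genes the vector library stood above both KLF2 libraries. Fos (865, 632 and 717), Junb (2130, 1204 and 1591) and Jund (809, 613 and 545) were lower without passing (adjusted p = 0.163, 0.0513 and 0.0671), and Atf3 was the 1 member called higher.

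The calls of falls in T/NK cells depended on 1 cluster of the vector library. Its T/NK cells formed cluster 2 (2019 cells) and cluster 10 (1102 cells), whereas KLF2 T/NK cells formed cluster 16 (94 and 398 cells). Fos stood at 1201 CPM in cluster 2 and 445 in cluster 10, Jun at 2605 and 838, Egr1 at 1102 and 314 and Fosb at 1055 and 340. The KLF2 cluster 16, with Egr1 at 108 and 271 and Jun at 768 and 1195, lay below cluster 10 for Egr1, around it for Jun, and below cluster 2 for both. Without cluster 2, none of the falls passed in edgeR: Egr1 was at -0.74 (SE 0.49, adjusted p = 0.361) and Fosb at -0.63 (SE 0.49, adjusted p = 0.44). Fos (0.51), Jun (0.15) and Ier2 (0.08) turned positive, while Atf3 stayed called (3.09, adjusted p = 0.00774). Cluster 2 was left out after seeing the data. It held more of the RNAs that fell than cluster 10, so smaller falls were bound to follow. The DESeq2 Wald test called only Atf3 in T/NK cells (Egr1 adjusted p = 0.464, Fosb 0.576). The makeup differed too: the 8 NK markers summed to 246 CPM in vector T/NK cells and to 1167 and 1008 in the KLF2 ones, and the 10 T cell markers to 3803, 4426 and 3123. The part of this makeup in the falls was not tested.

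**Figure D3:**
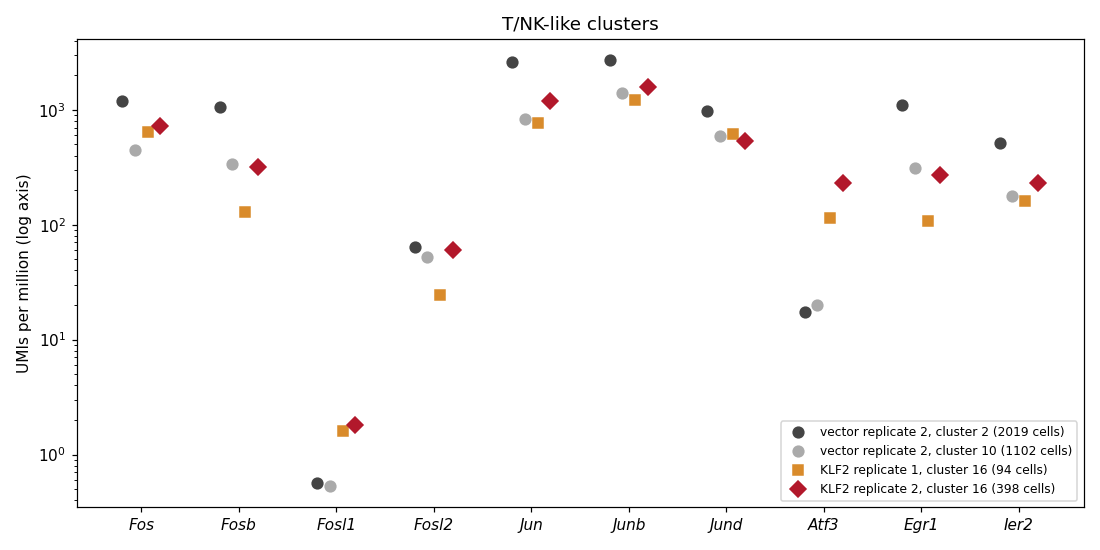
Level of each gene in CPM (log axis) in the T/NK-like clusters, with cell numbers in the key. Cluster 2 of the vector library is the highest for every gene except Fosl1 and Atf3, and cluster 10 of the same library lies among the KLF2 points for Jun, Junb, Jund and Ier2.

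Heat shock genes, another group that dissociation is known to raise, also fell in T/NK cells, but not there alone. Of 11 such genes, 7 fell and 1 rose in T/NK cells (7.83% and 10.8% of all genes; median log2 difference -1.26, against 0.02 for all genes). Hspa1a, an inducible chaperone, went from 980 CPM to 166 and 227, and Hsp90aa1 from 1401 to 451 and 461. Without cluster 2, 4 of them still fell (Hsp90aa1, Hspa1a, Hspa1b and Hsph1), against 458 of 10728 genes. In endothelial cells 3 heat shock genes fell and 1 rose (13.9% and 14.6% of all genes, median log2 difference -0.50). In myeloid cells 3 fell and 1 rose (8.23% and 13.7% of all genes, median -0.68). Every member called in these 2 classes was higher in KLF2. In the compartment, by contrast, 1 heat shock gene rose and 1 fell (13.5% and 10.5% of all genes). The gene that rose was Hspb1, a small chaperone, at 83.7, 1698 and 1784, and the gene that fell was Hspd1, a mitochondrial chaperone, at 425, 318 and 258. Hspa1a did not separate the groups there, with 175, 130 and 192. For Hspa1a the vector library lay between the KLF2 libraries.

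Whether a difference was particular to the compartment was tested with an interaction term over all 7 classes, after a term for each library had taken up what its classes shared. None of the 10 members passed, against 0.570% of 14563 genes called higher and 10.2% called lower; 2 members had an unadjusted p under 0.05. The largest terms were those of Egr1 (log2 1.54, SE 0.87, adjusted p = 0.325), Ier2 (1.39, SE 0.64, adjusted p = 0.2), Atf3 (1.03, SE 0.78, adjusted p = 0.507), Jun (0.97, SE 0.60, adjusted p = 0.381) and Jund (0.94, SE 0.44, adjusted p = 0.213). Junb had a term of -0.01. A term that misses the threshold does not show that the classes changed alike. The DESeq2 Wald test also called none. Without a filter on low counts Egr1 and Ier2 passed (adjusted p = 0.00396 and 0.0137), and with scaling by totals Jund did (0.0285), which also moved the median gene from -0.13 to 0.56. In edgeR the same term for T/NK cells, added after seeing the data, passed for Egr1 (-2.89, SE 0.59, adjusted p = 0.0396, against 0.0206% of genes called lower and 0.316% higher) and missed for Fosb (-2.24, adjusted p = 0.0835) and Fos (-1.86, adjusted p = 0.0848). The Egr1 term did not pass without cluster 2 (-1.54, adjusted p = 0.695), and none passed without either KLF2 replicate.

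The levels of each member over 7 classes and 3 libraries were also split into a share due to class and a share due to library. Atf3 stood apart from the other members with 73.3% of its variation between libraries and 18.9% between classes. Fos followed with 46.7% and 33.3%, and Fosb with 37.7% and 24.7%. In these 3 of 10 members the library share exceeded the class share, which was so for 29.3% of 4001 background genes, so the count is near the background. For Junb the class took 82.1% and the library 6.73%, for Fosl2 74.0% and 7.31%, and for Jund 67.3% and 10.8%. Egr1 and Jun left 42.5% and 41.5% to the residual. The members ran from Atf3, at the library end, to Junb, Fosl2 and Jund, at the class end. With at least 500 genes per cell, or at most 10% mitochondrial UMIs, 5 members had the larger library share.

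**Figure D4:**
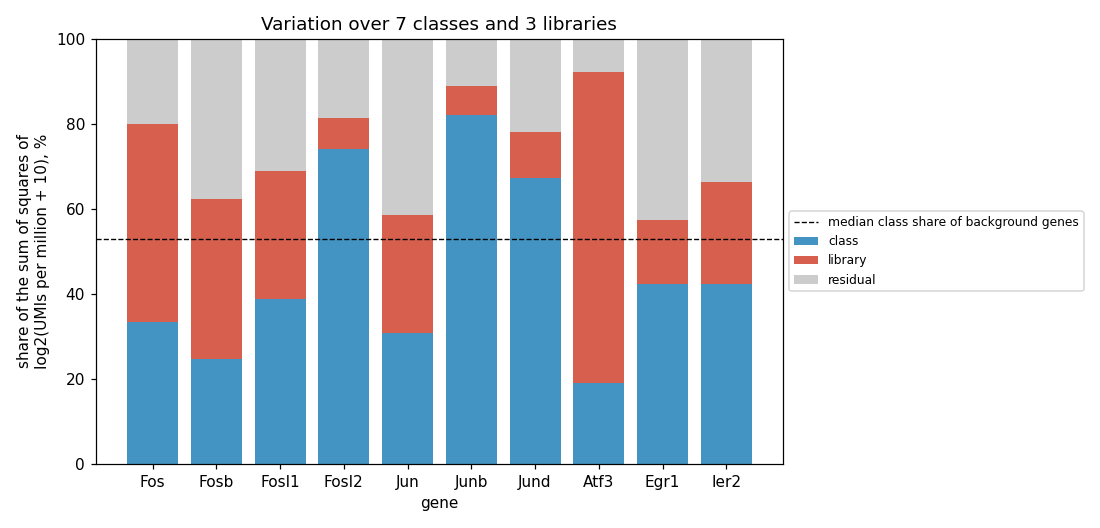
Share of the sum of squares of log2(CPM + 10) taken by class, library and residual for each gene, over 7 classes and 3 libraries. The library bar is largest for Atf3 (73.3%) and smallest for Junb (6.73%); the dashed line is the median class share of background genes (52.9%).

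RNA set free by broken tumour cells enters droplets of other cells, and the level of a member in a host class was therefore set beside 7 epithelial genes of the KLF2 compartment (Krt8, Krt18, Krt19, Elf3, Sox2, Bex1 and Lgr5, chosen after seeing the data). In T/NK cells these genes stood at 5.66% to 27.5% of their compartment level in KLF2 replicate 1 and at 17.8% to 31.4% in KLF2 replicate 2. Atf3 stood at 18.8% and 20.8%, inside both ranges, and Egr1 at 23.7% and 26.3%, also inside. Whether KLF2 T/NK cells themselves made these 2 RNAs was not tested. In endothelial cells Atf3 stood at 36.9% and 40.0%, above the highest reference gene in both libraries (18.7% and 26.4%), and in myeloid cells at 86.5% and 92.1%, against 27.9% and 31.3%. In mesenchymal cells it lay inside the range as well (21.2% and 43.9%), but in KLF2 replicate 2 only Lgr5 (63.1%, at 31.0 CPM) was above it, the next highest being Elf3 at 32.4%. In B/plasma cells it was above the range in 1 library and inside it in the other (49.3% and 51.0%), and in neutrophils likewise (142% and 79.4%). Fos was above the highest reference gene in T/NK, endothelial, myeloid, B/plasma and mesenchymal cells of both libraries, from 42.8% to 160% of its compartment level. Il31ra, a receptor gene with at most 0.8 CPM in any vector class, stood at 261 to 694 in all 7 classes of the KLF2 libraries. It was the reference intended at the outset and was replaced because its level was alike in all classes. Against Il31ra, at 427 and 590 CPM in endothelial and 377 and 480 in myeloid cells beside 425 and 538 in the compartment, Atf3 would not stand above the reference in endothelial cells. In myeloid cells Atf3 UMIs per Il31ra UMI were 1.39 and 2.17, beside 1.42 and 2.11 in the compartment. For Fos this ratio was 2.44 and 2.52 in the compartment. It was lower in T/NK (2.42 and 1.29), endothelial (1.12 and 1.25) and mesenchymal cells (1.43 and 2.37). It was higher in myeloid (3.84 and 3.32) and B/plasma cells (5.46 and 2.84).

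**Figure D5:**
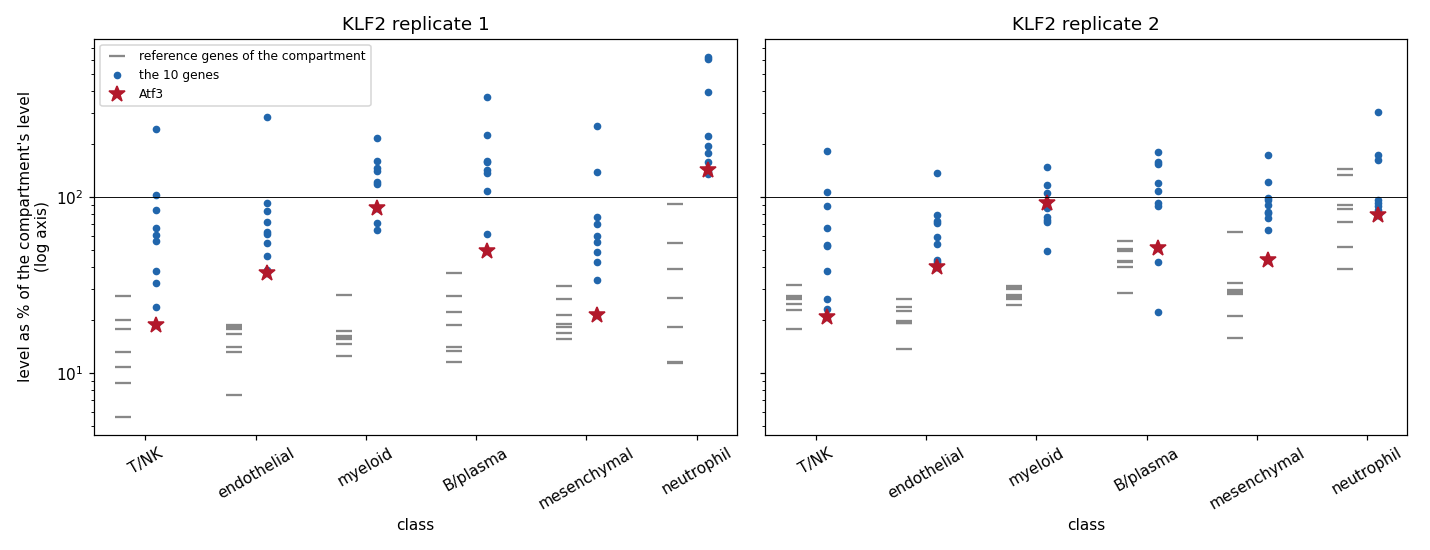
Level of each gene in a host class as a percentage of its level in the compartment of the same library (log axis), for the 10 genes (dots, Atf3 as a star, zero values left out) and 7 reference genes of the compartment (dashes). Atf3 lies among the dashes in T/NK cells (18.8% and 20.8%) and above them in endothelial and myeloid cells of both libraries.

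Within the KLF2 compartment the members varied between 9 clusters that held at least 50 cells in each library. Cluster 11, a cholangiocyte-like cluster led by Ly6d, Krt19 and S100g, had the highest Atf3 (1121 and 1716 CPM), Jun (2672 and 3289) and Ier2 (646 and 863) in both libraries. Fosl2 was highest in cluster 3 (81.8 and 108) and nearly as high in cluster 11 (78.5 and 103), and lowest in cluster 6 (14.4 and 22.5). The cells of cluster 3 were led by long neural adhesion genes and carried 32040 and 23152 CPM of the nuclear RNA Malat1. In the same cluster 3 Fos stood at 584 and 738 and Ier2 at 254 and 334, the lowest or the next lowest of the clusters. Jund was highest in cluster 25, led by alpha-defensin and hair keratin genes (1036 and 846). Cluster 8, led by the bone matrix genes Ibsp and Serpinf1, held the highest Fosl1 in KLF2 replicate 2 (18.5), Fos (1977) and Junb (1495), but in KLF2 replicate 1 its Fos (1195) was below cluster 11 (1443). Median depth ran from 2230 to 25848 UMIs over these clusters, and its part was not tested.

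Atf3 and Fos were found in a larger share of KLF2 compartment cells. After thinning each cell to 1000 UMIs, Atf3 was found in 3.52% of vector compartment cells and in 37.7% and 50.9% of the KLF2 ones, and Fos in 20.2%, 47.9% and 53.3%. Without thinning the shares were 8.15%, 79.6% and 83.4% for Atf3 and 53.3%, 86.1% and 85.0% for Fos. In T/NK cells, where the KLF2 level of Atf3 lay within the range of the reference genes, the thinned shares were 1.67%, 14.7% and 21.8% and the unthinned ones 5.09%, 45.3% and 53.3%. Median depth was 3303, 9424 and 6974 UMIs in compartment cells and 3148, 5221 and 3335.5 in T/NK cells. Fosl1 was found in 0 of 568 thinned vector cells, which allows a share of up to 0.672% (upper Wilson 95% limit). In the KLF2 cells it was found in 0.60% and 0.82%, the value of KLF2 replicate 1 being below that limit. These are shares of cells with a UMI, not of cells expressing the gene. All 10 members had a higher thinned share in both KLF2 compartments. Thinned shares were not counted over all genes, but in CPM 78.0% of 3633 genes were higher in both. At least 5 of the 10 genes were found in 2.46% of vector compartment cells (Wilson 95% interval 1.47 to 4.09), in 22.5% (21.4 to 23.6) of KLF2 replicate 1 and in 36.1% (35.1 to 37.1) of KLF2 replicate 2, with 21 shallow vector cells left out. In T/NK cells the vector library was instead the highest, with 31.7%, 10.5% and 20.8%.

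The members also had unequal levels in the KLF2 libraries. All 10 members were higher in the compartment of KLF2 replicate 2 than in that of KLF2 replicate 1, although only 36.0% of background genes were. The count was 9 of 10 in T/NK, endothelial, myeloid and mesenchymal cells (background 25.2%, 24.5%, 34.3% and 40.2%), 7 in B/plasma cells (38.7%) and 3 in neutrophils (44.3%). Egr1 was 453 against 1032 in the compartment and 251 against 852 in mesenchymal cells, and Fosb 193 against 474 and 136 against 820. With 1 library each, these differences have no test.

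The pathway around the members was described with lists that, like the members, were chosen with earlier results known. Of 30 other early response genes, 10 rose and 2 fell in the compartment (13.5% and 10.5% of all genes). Their median log2 difference there was 0.42, below the 0.68 of all genes. In the interaction test none rose and 2 fell (0.570% and 10.2% of all genes). In T/NK cells 1 rose and 6 fell (10.8% and 7.83% of all genes). Without cluster 2 of the vector library, 1 rose and 0 fell there (935 and 458 of 10728 genes). Klf4, a zinc finger factor, rose from 26.4 to 208 and 289 CPM (2.54, adjusted p = 0.0129), and Maff, a small MAF protein, from 5.21 to 37.1 and 55.9 (2.46, adjusted p = 0.0216). Dusp2, a nuclear MAP kinase phosphatase, fell from 49.8 to 2.07 and 3.13 (-4.95, adjusted p = 0.00324), more than in other classes (interaction -4.42, adjusted p = 0.00647). Ccn2, a matricellular YAP target, fell from 23.8 to 4.16 and 2.78 (-3.47, adjusted p = 0.00699; interaction -3.15, adjusted p = 0.00511). Dusp2 is a lymphocyte gene (365 CPM in vector T/NK cells), and the T cell markers summed to 310 CPM in the vector compartment against 15.2 and 13.9, so lymphocyte RNA moved with that fall and with the fall of Maf given next, and its part was not tested.

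Of 18 other basic leucine zipper genes, 3 rose and 4 fell in the compartment (13.5% and 10.5% of all genes). The same 4 fell in the interaction test (10.2% of all genes). These were Maf, which stood at 321 CPM in vector T/NK cells (51.8, 9.80 and 8.77 CPM in the compartment; interaction -2.82, adjusted p = 0.0177), Cebpb, a liver-enriched factor (128, 38.3 and 29.7; -2.76, adjusted p = 0.000498), Atf5, another liver-enriched factor (118, 38.0 and 33.6; -2.44, adjusted p = 0.00388), and Batf3 (8.14, 0.97 and 0.90; -2.41, adjusted p = 0.0138). Of 21 upstream kinase and serum response genes, 2 rose (13.5% of all genes), Braf (3.26, 35.7 and 39.4) and Map2k4 (5.53, 34.5 and 41.6). None of them passed the interaction test (10.8% of all genes did, in either direction). Of 13 MAP kinase feedback genes, many of which are known to be induced by ERK signalling, 6 rose and none fell in the compartment (13.5% and 10.5% of all genes; median log2 difference 1.27), among them Dusp4 (1.30, 19.98 and 27.4; 3.49, adjusted p = 0.0136), Etv5 (2.60, 37.0 and 43.6; 3.26, adjusted p = 0.00772), Spred2 (5.53, 68.5 and 62.4; 2.87, adjusted p = 0.00699) and Dusp10 (5.86, 38.7 and 80.1; 2.65, adjusted p = 0.0445). None of the 13 passed the interaction test (10.8% of all genes did, in either direction). In endothelial cells 4 rose, and in myeloid cells 4 (14.6% and 13.7% of all genes).

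Of 20 genes known as AP-1 targets, 4 rose and 1 fell in the compartment (13.5% and 10.5% of all genes; median 0.47), and 13 rose and 2 fell among 18 tested in myeloid cells (13.7% and 8.23% of all genes; median 2.52, against 0.15 for all genes). The 10 macrophage markers summed to 3450 CPM in vector myeloid cells and to 7231 and 7301 in the KLF2 ones. The part of this makeup in the myeloid rises was not tested. Of 14 tested in endothelial cells 9 rose and 1 fell (14.6% and 13.9% of all genes). Of 14 tested in T/NK cells 6 rose and 0 fell (10.8% and 7.83%). Spp1, the secreted protein osteopontin, fell in the compartment from 335 to 60.8 and 129 CPM (-2.51, adjusted p = 0.0255), and rose in T/NK cells from 24.3 to 35.2 and 92.5 (1.30, adjusted p = 0.0191). Mmp12, a macrophage elastase, and Itgav, an integrin chain, did not pass in the compartment (8.14, 4.84 and 12.99; 17.6, 27.7 and 30.9), while their interaction terms were -3.61 (adjusted p = 0.00354) and -1.95 (adjusted p = 0.00195). Hmga2, a chromatin protein of fetal tissue, had no UMI in the vector compartment and 11.4 and 18.8 CPM in the KLF2 ones (adjusted p = 0.0148). Spp1 and Mmp12 are among the leading genes of the KLF2 macrophage cluster 9, and the part of macrophage RNA in other droplets in these terms was not tested. The 2 nuclear RNAs Malat1 (1676, 4046 and 4918) and Neat1 (121, 214 and 302) did not pass in the compartment.

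Among genes whose mean reached 30 CPM, those most like Fos over the 21 sums of class and library were H3f3b (Pearson r = 0.93), Map3k8 (0.92), Tgif1 (0.90), Btg2 (0.88) and H3f3a (0.86). Those most like Atf3 were Cers6 (0.94), Slc7a8 (0.91), Cadm1 (0.89), Slc16a10 (0.89) and Pid1 (0.89), and those most like Fosl1 were Ptp4a1 (0.91), Lrrfip2 (0.88), Hbp1 (0.88), Ubxn4 (0.87) and Egln3 (0.85). Among the members themselves Jun and Ier2 were closest (r = 0.92), followed by Jun and Egr1 (0.91) and Egr1 and Ier2 (0.91), while Fosl2 and Jund were the least alike (0.03). The 21 sums share 3 libraries and their depth, so these values describe the sums and carry no test.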

How the data were processed

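Single-cell RNA was measured in dissociated tumours with a DNBelab C Series droplet kit, per the labels' protocols. The values are UMI counts per gene and barcode as deposited, whole numbers with no normalization. The matrices were written by PISA 1.0, per the file headers, and the genome build was GRCm38, per the submitters' processing notes. No aligner, annotation, strand setting or cell-calling rule is given in the sources used here. Deposited barcodes started at 522 UMIs in the vector library and at 1000 in the KLF2 libraries. Per the labels the libraries are biological replicates.

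Barcodes under 300 genes or over 25% mitochondrial UMIs were dropped, which removed 34.6% of vector and 1.16% and 1.22% of KLF2 barcodes. Scrublet called 0 doublets in each library and so did not work; none were removed. Counts scaled per cell were reduced to 2000 variable genes, with the members, early response, other leucine zipper and heat shock genes left out, and 30 components, then clustered by Leiden at resolution 1.0 (scanpy 1.11.5, leidenalg 0.10.2). Clusters were named from marker lists when at least 3 markers were raised. The counting of raised markers over a family of types, and the compartment (clusters named hepatocyte-lineage-like or cholangiocyte-like, plus unnamed ones under 100 CPM of Ptprc), were set after seeing the data. A vector cluster of 1459 cells with Ptprc stayed unnamed and entered no class.

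Sums of UMIs for each class of a library entered edgeR 4.0.16 (quasi-likelihood, TMM, filterByExpr, Benjamini-Hochberg over all genes, threshold 0.05). Within a class 1 residual degree of freedom remains, which edgeR moderates over all genes, and vector is assumed to vary like the KLF2 libraries. The degrees of freedom after moderation differed by class, so passing does not mean the same in every class. The interaction fits use 7 classes by 3 libraries. DESeq2 1.42.0 was an alternative. The fits were checked on simulated counts. The members, lists and tests were chosen with earlier results of these data known. All 10 members are named, and of each list up to 4 genes past the threshold in the interaction test, then in the compartment; intervals and floors cover counting error only.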

Additional observations from a re-analysis of the deposited data

Results flagged for a closer look

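Egr1 in T/NK cells differed from Egr1 in the other classes: the term for T/NK cells was -2.89 on the log2 scale (edgeR, SE 0.59, adjusted p = 0.0396), with Egr1 lower in both KLF2 libraries than in the vector library in T/NK cells and higher in both in the compartment. The term was chosen after seeing the data. Over its 18 alternatives the adjusted p ran from 2.22e-07 to 1, and it passed in 10 of them. Without cluster 2 of the vector library the term was -1.54 (adjusted p = 0.695).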

How the results depend on the processing

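No paired analysis was possible because vector replicate 2 shares only its number with KLF2 replicate 2, so the groups share fewer than 2 numbers.

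The 10 members kept a higher share of cells with a UMI in both KLF2 compartments with no thinning and with 500 UMIs. These shares were not counted over all genes. Members called in the compartment (4) became 7 with totals only and 2 with thinning to 1000 UMIs, while genes called (4895) became 8140 and 2487; the share of calls that were higher went from 56.2% to 79.8% with totals only. In T/NK cells the 5 calls became 3 with totals only, and 1 with DESeq2 or without vector cluster 2, a setting added after seeing the data.

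In endothelial cells the 4 calls became 0 with thinning and 1 with at least 500 genes. In myeloid cells 2 became 1 with at most 10% mitochondrial UMIs or with members among the clustering genes, and in B/plasma cells 2 became 1 with no filter. In mesenchymal cells 2 became 7 with totals only, 5 at resolution 2.0, 4 without mitochondrial genes, Gm42418, Cmss1, Camk1d and Malat1, 0 with DESeq2, and 1 with at most 10% mitochondrial UMIs, with members among the clustering genes or without the highest doublet scores. In neutrophils 1 member was called in each of the 10 alternatives run.

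In the compartment's interaction term the 0 calls became 1 with totals only and 2 with no filter. Genes called there (1575) were 521 and 532 without KLF2 replicate 1 or 2, 733 with thinning and 922 with at least 500 genes. In the T/NK term the 1 call became 3 with DESeq2, thinning or at least 500 genes, 5 with no filter, 2 at resolution 2.0 and 0 without the highest doublet scores, the mesenchymal class or vector cluster 2. Leaving out a KLF2 replicate also gave 0 members. Genes called there (49) were 193 with no filter, 31 with at most 10% mitochondrial UMIs or without the highest doublet scores, 11 with 4 classes, and 0 and 10 without KLF2 replicate 1 or 2. The layout count of 3 became 5 with at least 500 genes and with at most 10% mitochondrial UMIs.

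Signs turned as follows. In the compartment Fosb ran from -0.51 without KLF2 replicate 2 to 0.88 without KLF2 replicate 1, and Junb from -0.25 to 0.67, and Junb was -0.23 with thinning. In T/NK cells without vector cluster 2, Fos was 0.51, Jun 0.15 and Ier2 0.0848. Junb's interaction term of -0.01 became 0.72 with totals only, 0.10 with TMMwsp scaling, 0.0656 without mitochondrial genes, Gm42418, Cmss1, Camk1d and Malat1, 0.26 with no filter, 0.24 without KLF2 replicate 1, -0.22 without KLF2 replicate 2, 0.17 with at most 10% mitochondrial UMIs, 0.0276 at resolution 2.0, 0.40 with 4 classes, 0.0403 without haemoglobin-led and Malat1-led clusters and 0.0113 without the mesenchymal class. In the T/NK term Fosl1 was 1.32 with at most 10% mitochondrial UMIs, and Atf3 was 0.24 with thinning, 0.28 with at most 10% mitochondrial UMIs and 0.0223 with 4 classes. The cause of these changes was not tested. Fits within a class without a KLF2 replicate set 1 library against 1 and gave values with no test.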
